A study of Mus musculus with 6 samples.

Results

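Chromatin accessibility was followed at the promoters of the genes whose names start with Eif, most of which encode eukaryotic translation initiation factors or their regulators. A region was taken when the deposited table lists it as the promoter of a gene with such a name, and each distinct region was counted once. This gave 42 regions of 41 genes, out of 14097 promoter regions and 43523 distinct regions in all. The rule uses names and positions, not counts. It reaches only promoters that have a region in the deposited table, so the members are not a full set of Eif promoters.

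The cells were nephron progenitors of CD1 mice, the cells of the outer kidney from which the epithelium of the nephrons is made. They were taken from embryos at E14.5 or from pups at P0, the day of birth, with 3 libraries per stage. Each library came from the pooled kidneys of 1 litter, so that the 3 libraries of a stage are separate litters and single animals cannot be told apart within them. No gene change, transgene or drug is named for either stage, and the only named difference between the groups is age. The cells were selected with magnetic beads carrying antibodies to Itga8, an integrin of these cells, and their nuclei were treated with Tn5 (ATAC-seq), a transposase that inserts sequencing adapters into open DNA. The number of reads in a region is then a measure of how open the DNA is there, not of how much RNA or protein the gene makes.

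In the first steps of translation, eIF2 brings the initiator tRNA to the small ribosomal subunit, eIF3 and eIF1A help that complex to bind the message, and eIF1 guards the choice of the start codon. The eIF4 factors bind the cap of the message and unwind its leader, and eIF5B joins the large subunit. Cells under stress restrain these steps through kinases that phosphorylate eIF2, which blocks its exchange factor eIF2B, and through 4E-BP proteins that occupy the cap-binding protein eIF4E. The genes for these factors are active in nearly all cells, and promoters of this kind are typically rich in CpG and lack a TATA box.

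Of the 41 names, 3 are older names for genes that are not initiation factors: RefSeq lists Eif2c1 as Ago1, Eif2c2 as Ago2 and Eif2c3 as Ago3, the Argonaute proteins that carry microRNAs. They supply 4 of the 42 regions, since Eif2c2 has 2. A further 18 Eif names occur in the table with no promoter region under their name. For 9 regions the table names another gene as the promoter's owner although a RefSeq start site of an Eif gene lies inside, among them the start of Eif4e, which encodes the cap-binding protein. These 9 were left out by the rule and are described after the members. In turn, 6 member regions also hold the RefSeq start of another gene, and their signal cannot be given to either: those of Eif5b, Eif2s1, Eif2a, Eif1ad, Eif5a2 and Eif4enif1.

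The sequences of 7 promoters are shown as examples, and no accessibility result rests on them. Eif2ak3, Eif3f, Eif2s1 and Eif2ak4 are the 4 most open members per kb, and Eif4b, Eif1 and Eif4h have 3 of the 4 lowest fold changes. Each line gives the 120 bases before the RefSeq start site, 5′ to 3′ on the strand of the gene, from assembly GRCm38.p6. Capitals mark matches on either strand to any of 8 short motifs named in the next paragraph.
Eif2ak3 (chr6:70844395-70844514, plus strand): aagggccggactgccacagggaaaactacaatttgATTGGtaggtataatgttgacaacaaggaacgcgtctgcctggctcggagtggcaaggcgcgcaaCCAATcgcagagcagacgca
Eif3f (chr7:108934295-108934414, plus strand): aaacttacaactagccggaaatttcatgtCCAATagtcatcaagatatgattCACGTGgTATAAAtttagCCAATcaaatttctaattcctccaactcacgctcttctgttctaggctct
Eif2s1 (chr12:78861952-78862071, plus strand): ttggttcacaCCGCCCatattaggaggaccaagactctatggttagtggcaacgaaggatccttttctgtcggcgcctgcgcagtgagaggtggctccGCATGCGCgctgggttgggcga
Eif2ak4 (chr2:118388497-118388616, plus strand): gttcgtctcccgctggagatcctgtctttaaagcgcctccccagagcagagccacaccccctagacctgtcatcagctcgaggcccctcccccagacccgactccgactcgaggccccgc
Eif4b (chr15:102073653-102073772, plus strand): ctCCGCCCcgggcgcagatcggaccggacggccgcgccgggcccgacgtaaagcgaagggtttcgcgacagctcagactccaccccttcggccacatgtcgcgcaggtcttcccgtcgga
Eif1 (chr11:100319829-100319948, plus strand): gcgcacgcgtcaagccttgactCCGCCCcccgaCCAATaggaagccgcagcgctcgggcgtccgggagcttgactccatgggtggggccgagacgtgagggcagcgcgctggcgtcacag
Eif4h (chr5:134639410-134639529, minus strand): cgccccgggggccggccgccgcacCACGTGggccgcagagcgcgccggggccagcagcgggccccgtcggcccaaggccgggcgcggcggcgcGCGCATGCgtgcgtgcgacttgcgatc

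RefSeq promoters (250 bases before to 50 after the start) were matched for 34 of the 41 genes. The median GC content of these 34 was 61.8%, beside 61.7% for the 10673 RefSeq promoters whose start lies in a promoter region of the table, whichever gene it is listed for, and 52.7% for all 27025. GGGCGG, the GC box, was in 26 of the 34 (76.5%, against 67.4% of the 10673). CCGGAAG, an Ets site, was in 11 (32.4% against 17.6%), among them Eif1ax, Eif2ak1, Eif3d and Eif4ebp2. CCAAT was in 11 (32.4% against 39.8%). CACGTG, an E-box, was in 5 (14.7% against 10.4%), namely Eif3a, Eif3f, Eif4a1, Eif4h and Eif5a2. AAGATGGC, a Yy1 site, was in 4 (11.8% against 4.42%), TATAAA in 4 (11.8% against 6.41%) and GCGCATGC, the core of the Nrf1 site, in 2 (5.88% against 5.49%). TGACGTCA, the cyclic AMP response element, was in 0 of the 34 (3.46% of the 10673). Both strands were searched, a promoter counts once per motif, and overlapping matches of different motifs were each kept. The shares carry no test, and a match is a run of letters, not a bound site.

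The libraries held 6492996 to 12292629 counts in the distinct regions, and the member regions 22 to 1882 counts per library. P0 replicate 2 was the shallowest library and stood apart at promoters: scaled to CPM (counts in a region relative to the TMM-scaled library total), it was the lowest of the 6 libraries in 49.4% of promoter regions. Promoter regions took 62.2%, 56.1% and 60.6% of the counts at E14.5 and 56.2%, 53.4% and 59.1% at P0. Of 10 nephron progenitor markers, 6 had a promoter region in the table, with a summed level of 169 to 180 CPM at E14.5 and 142 to 193 CPM at P0, while Cited1, Itga8, Meox1 and Pax2 had none. Promoter regions were also listed for 2 of 6 stromal, 4 of 6 ureteric, 1 of 5 endothelial and 2 of 6 differentiated nephron markers, and for 0 of 6 immune and erythroid markers. The summed levels were 57.2 to 69.4 CPM at E14.5 and 51 to 81.8 CPM at P0 for the stromal list, and 90.5 to 106 against 79.8 to 91.9 CPM for the ureteric list. They were 19.8 to 29.6 against 22.7 to 31.2 CPM for the endothelial list and 89.4 to 110 against 91.3 to 125 CPM for the differentiated nephron list. The part of the depth and of these lists in the stage differences was not tested.

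At the level of single promoters, no stage difference passed the test. The test was edgeR's quasi-likelihood test with Benjamini-Hochberg adjustment over all regions. In it, 0 of 42 member regions had an adjusted p under 0.05, beside 0.851% of all promoter regions and 4.73% of all regions. At the share of promoter regions, a count of 0 in 42 is no result about the members. The smallest adjusted p among the members was 0.142, at Eif4b. DESeq2's Wald test and limma-voom also called 0. At an unadjusted p under 0.05 there were 5 members (Eif4b, Eif5a, Eif1, Eif4h and Eif2c3), all lower at P0. With 1 library left out this number was 10 without P0 replicate 3, 2 without P0 replicate 2 and 1 without E14.5 replicate 1, and it was 3 with total counts, scaling on promoter regions or cyclic loess. With all libraries, the same limit was met by 8.73% of all promoter regions in either direction, and by 6.04% in the lower direction. The 95% interval of the fold change lay within 2-fold in both directions for 36 of the 42 (85.7%), beside 91.8% of all promoter regions. The exceptions were Eif5a, Eif4b, Eif1, Eif4h, Eif3j and Eif2s3y.

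As a group the members leaned to lower values at P0, and so did promoters at large. The median log2 fold change of the 42 regions (P0 against E14.5) was -0.21, with quartiles of -0.32 and -0.01, and 34 of 42 (81%) were below 0. Over all promoter regions the median was -0.10, with 66% below 0, and over the 5779 promoter regions within the members' quartiles of mean CPM (20.2 to 41.5) it was -0.12, with 69.2% below 0. Over all regions it was 0.01. The median of the members minus that of promoters of similar level was -0.09 on the log2 scale. The median CPM of the members differed between libraries of a stage with a pooled SD of 0.12 (log2). Without P0 replicate 2 the members' median was -0.06, that of all promoter regions -0.03, and the difference from promoters of similar level was -0.02. Without P0 replicate 3 the members' median was -0.36 and that of all promoter regions -0.21. Scaling on promoter regions alone put the median of all promoters at 0.00, a shift of 0.10, and left the members at -0.12. These are descriptions with no test.

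**Figure D1:**
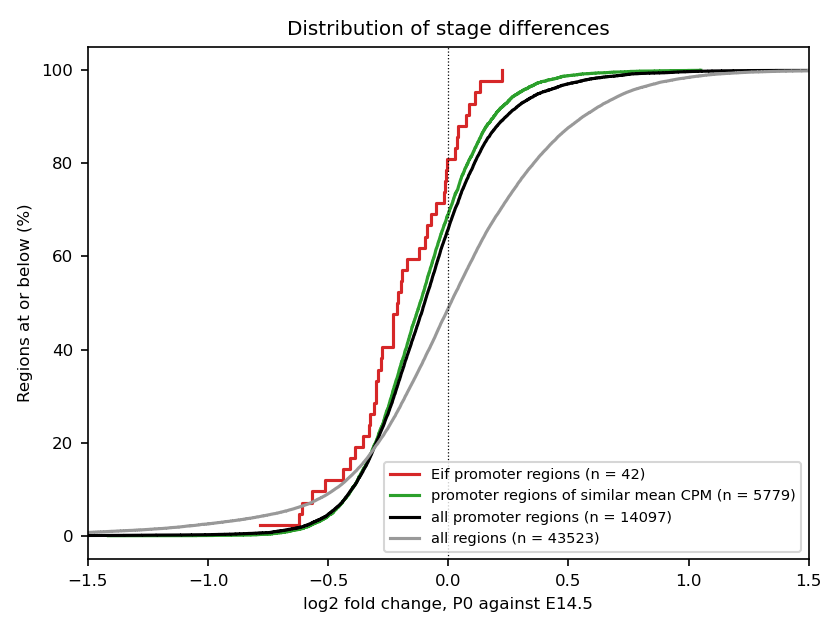
Cumulative share of regions (y axis, percent) at or below each log2 fold change of P0 against E14.5 (x axis), for the 42 Eif promoter regions, promoter regions of similar mean CPM, all promoter regions and all regions. The Eif curve lies to the left of both promoter curves over most of its length, with its median at -0.21 against -0.12 and -0.10, and the curve of all regions crosses 50% near 0.

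This lean was also read in the single libraries. P0 replicate 2 was the lowest of the 6 libraries in 29 of 42 member regions (69%, beside 49.4% of all promoter regions). P0 replicate 3 was the highest in 14 (33.3%, beside 27.1% of all promoter regions). E14.5 replicates 1 and 3 were the highest in 13 and 12 (31% and 28.6%, beside 22.3% and 23.4% of all promoter regions). The members' median log2 CPM was above that of all promoter regions by 0.12, 0.16 and 0.18 in the E14.5 libraries. In the P0 libraries the same difference was -0.04, 0.00 and 0.02. Against promoters of similar level it was -0.03, 0.02 and 0.04 at E14.5 and -0.19, -0.11 and -0.14 at P0. On both measures the 3 P0 libraries lay below the 3 E14.5 libraries. These are differences between medians of levels, and they do not match the difference between median fold changes, which was -0.09 against promoters of similar level and -0.02 without P0 replicate 2.

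The summed counts of the 42 regions were 0.145%, 0.138% and 0.141% of all counts in the E14.5 libraries and 0.128%, 0.105% and 0.154% in the P0 libraries. The stage means were 0.142% ± 0.00345 (SD, n = 3) and 0.129% ± 0.0248 (SD, n = 3). The highest and the lowest of the 6 values both came from P0, so the stages overlapped and the spread at P0 exceeded the difference of the means. Without P0 replicate 2 the P0 mean minus the E14.5 mean was -0.00062 percentage points, and without P0 replicate 3 it was -0.0254, beside -0.0127 with all libraries. With the 10 regions of most counts left out of the total, the difference was -0.0184 and E14.5 replicate 1 was highest, at 0.174%. Relative to the counts in promoter regions the difference was -0.00944.

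**Figure D2:**
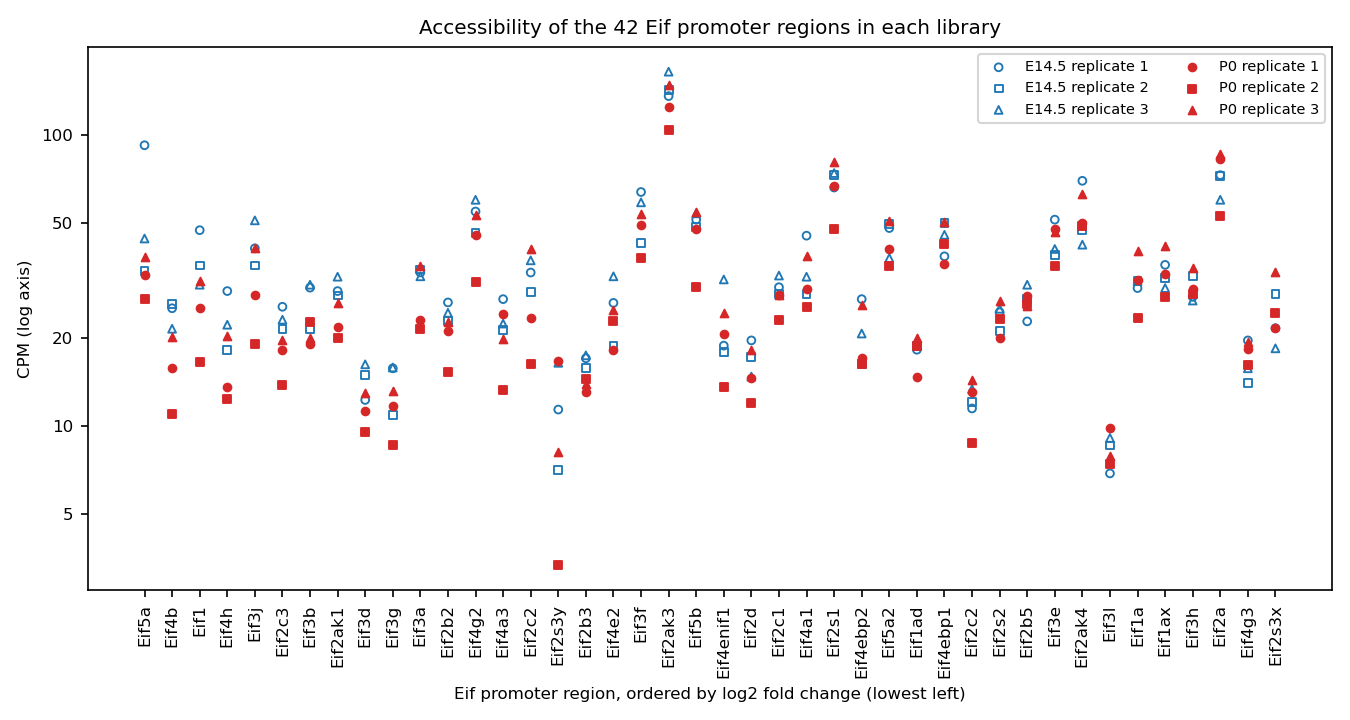
Accessibility (y axis, CPM, log axis) of the 42 Eif promoter regions in each of the 6 libraries, ordered along the x axis from the lowest to the highest log2 fold change. Open blue symbols are E14.5 and filled red symbols are P0. The P0 replicate 2 square is the lowest symbol in 29 of the 42 columns, and the stages overlap in all but 6.

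In 6 regions every P0 library lay below every E14.5 library: Eif4b, Eif2ak1, Eif2b2, Eif2b3 and the Argonaute regions Eif2c1 and Eif2c3. That is 6 of 42, beside 12.1% of all promoter regions. In 0 of 42 did every P0 library lie above, beside 4.63% of all promoter regions. The other 36 had overlapping stages.

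In the group set up for start site selection and subunit joining, 4 of 7 regions were below 0, with a median log2 fold change of -0.07. That median is the value of Eif1ad, whose part in these steps is not shown by these data. Eif1, the gatekeeper of start codon choice (chr11:100319359-100320917), gave 47.1, 35.6 and 30.6 CPM at E14.5 and 25.4, 16.6 and 31.6 CPM at P0. P0 replicate 3 reached the level of the lowest E14.5 library, so the stages overlapped. The log2 fold change was -0.61 (SE 0.24, adjusted p = 0.18 in edgeR), and without P0 replicate 2 it was -0.40.

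Of the other members of this group, 3 lay slightly above 0 and 3 below. Eif1ax, the X-linked copy of the gene for eIF1A, gave 35.8, 32.2 and 29.8 CPM at E14.5 and 33.2, 27.7 and 41.6 CPM at P0, a log2 fold change of 0.07 (SE 0.20). The autosomal copy Eif1a had a log2 fold change of 0.04 (SE 0.21). Eif2a, which encodes an initiator tRNA-binding protein distinct from eIF2, was at 72.8, 72.3 and 59.9 CPM at E14.5 and 82.5, 52.7 and 85.8 CPM at P0 (chr3:58524668-58526642). Its log2 fold change was 0.11 (SE 0.22), and the other start in the region is that of Serp1. Eif5b, which encodes the factor of subunit joining, had -0.21 (SE 0.22), Eif2d -0.20 (SE 0.22) and Eif1ad -0.07 (SE 0.20).

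For eIF2 and its exchange factor eIF2B, 6 of 7 regions were below 0, with a median of -0.12. Eif2s1, the alpha subunit that the stress kinases phosphorylate (chr12:78860813-78862507), gave 66, 72.7 and 74 CPM at E14.5 and 66.7, 47.4 and 80.8 CPM at P0. Both the highest and the lowest value were from P0, and the log2 fold change was -0.12 (SE 0.22, 95% interval -0.59 to 0.34). The other start in the region is that of Atp6v1d, a subunit of the vacuolar proton pump. Eif2s2, the beta subunit, gave 24.6, 21.2 and 25.3 CPM at E14.5 and 20.1, 23.3 and 26.9 CPM at P0, with a log2 fold change of -0.01 (SE 0.19).

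The gamma subunit has an X-linked and a Y-linked gene. Eif2s3x gave 21.7, 28.5 and 18.5 CPM at E14.5 and 21.7, 24.4 and 33.9 CPM at P0, with the highest log2 fold change of all members, 0.22 (SE 0.23, 95% interval -0.26 to 0.70). Eif2s3y gave 11.4, 7.09 and 16.5 CPM at E14.5 and 16.8, 3.33 and 8.13 CPM at P0. Its log2 fold change of -0.28 had the widest error of all members (SE 0.43, 95% interval -1.19 to 0.63). The other regions of the Y chromosome summed to 1585.6, 895 and 1840.7 CPM at E14.5 and 2082.0, 1408.1 and 994 CPM at P0. With 1 library left out, the value of Eif2s3y ranged from -0.98 to 0.09 and that of Eif2s3x from -0.02 to 0.40. The males in each litter are not given by the labels, and their part in the values of Eif2s3x and Eif2s3y was not tested.

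Of the eIF2B genes, Eif2b2 gave 26.6, 22.9 and 24.5 CPM at E14.5 and 21.3, 15.3 and 22.7 CPM at P0, a log2 fold change of -0.31 (SE 0.20). Eif2b3 was at 16.8 ± 0.912 CPM (SD, n = 3) at E14.5 and 13.8 ± 0.706 CPM (SD, n = 3) at P0, a log2 fold change of -0.28 (SE 0.20). In both, the stages did not overlap, but the adjusted p was 0.454 for Eif2b2 and 0.499 for Eif2b3 in edgeR. Eif2b5, the catalytic subunit, was at 26.9 ± 3.86 CPM (SD, n = 3) at E14.5 and 26.7 ± 1.12 CPM (SD, n = 3) at P0. Its log2 fold change was -0.01 (SE 0.19, 95% interval -0.41 to 0.39).

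The eIF3 subunits, which form the scaffold on the small ribosomal subunit, had the lowest median of the groups with more than 3 regions, -0.33. The eIF4 factors were close, at -0.30, and the order of the groups was not tested. Of the eIF3 regions, 7 of 9 were below 0 and 0 of 9 past the unadjusted limit (8.73% of all promoter regions). Eif3j, a loosely bound subunit (chr2:122027665-122029608), gave 40.8, 35.6 and 50.9 CPM at E14.5 and 28.3, 19.2 and 40.9 CPM at P0. Only P0 replicate 3 reached the E14.5 values, and the log2 fold change was -0.51 (SE 0.25, adjusted p = 0.292 in edgeR). RefSeq names the start in this region Eif3j1. A close copy, Eif3j2, exists in the mouse, and how the authors placed reads that fit both is not given in the sources used here.

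Eif3b, one of the large scaffold subunits (chr5:140418116-140421588), gave 29.9, 21.6 and 30.6 CPM at E14.5 and 19.1, 22.7 and 20 CPM at P0, with a fitted log2 change of -0.41 (SE 0.20, adjusted p = 0.292 in edgeR). Here the stages overlapped through E14.5 replicate 2. Eif3g, an RNA-binding subunit, gave 15.8, 10.9 and 15.9 CPM at E14.5 and 11.7, 8.63 and 13.2 CPM at P0, a log2 fold change of -0.33 (SE 0.25). Eif3d and Eif3a, with -0.36 and -0.33, were of the same size. Eif3f had -0.23 (SE 0.22), which ranged from -0.40 without E14.5 replicate 2 to -0.10 without P0 replicate 2. For Eif3g the values without the same libraries were -0.50 and -0.18.

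The other 3 eIF3 genes were near 0. Eif3e had a log2 fold change of -0.01 (SE 0.20). Eif3l, the member with the lowest mean CPM, gave 6.88, 8.58 and 9.11 CPM at E14.5 and 9.89, 7.42 and 7.89 CPM at P0, or 0.04 (SE 0.26). Eif3h gave 27.8, 32.8 and 27 CPM at E14.5 and 29.5, 28.5 and 34.8 CPM at P0, or 0.09 (SE 0.19).

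**Figure D3:**
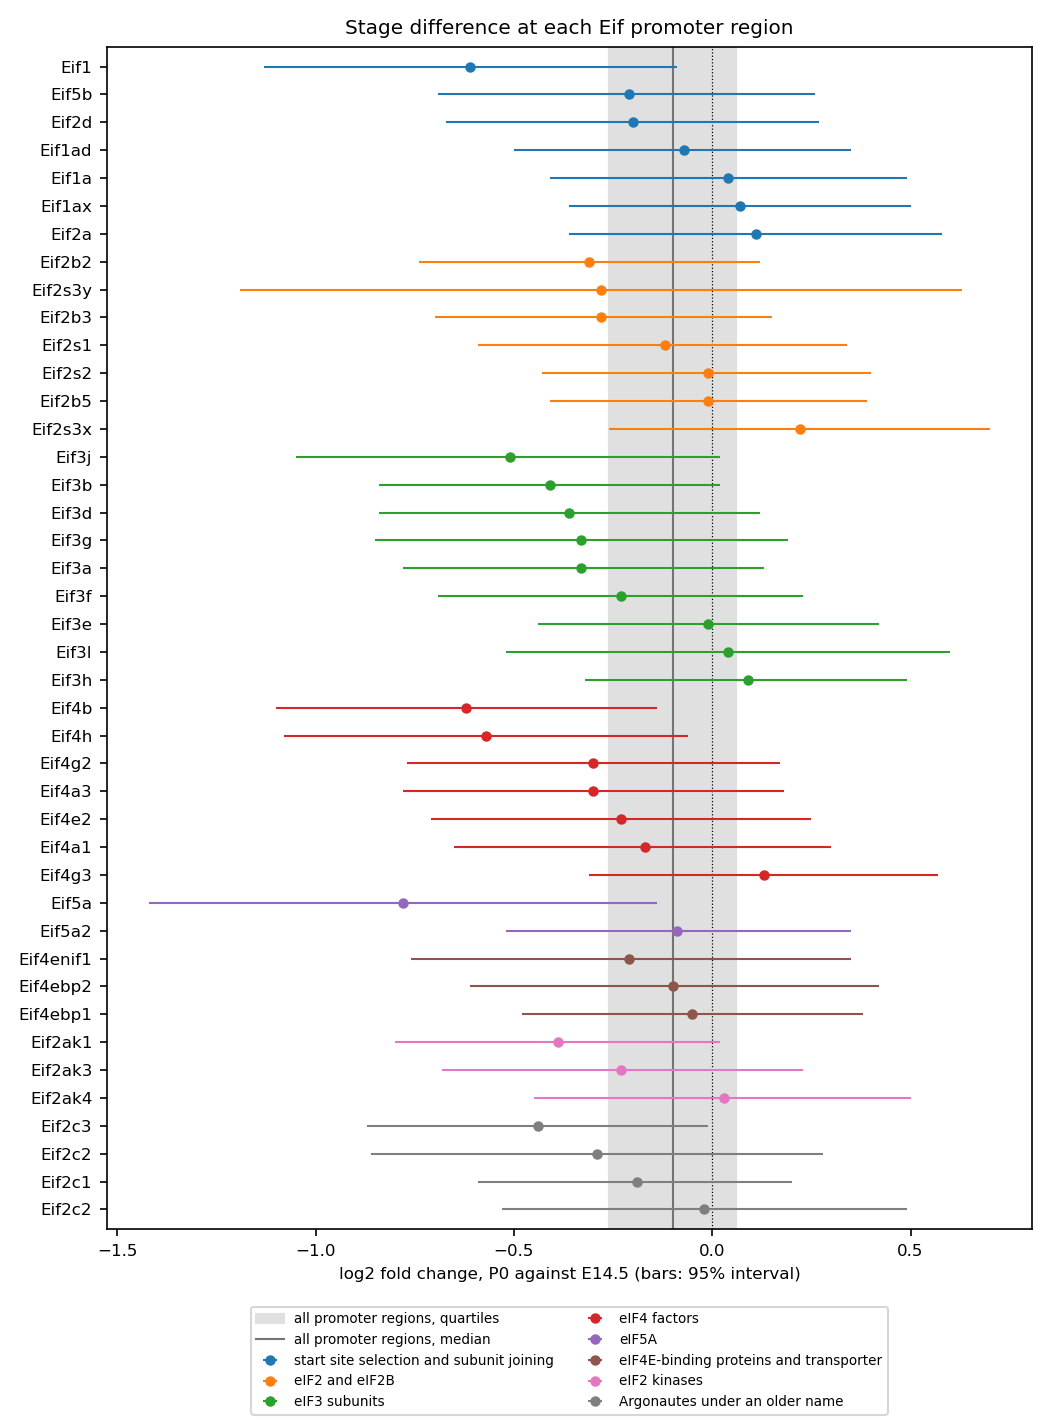
Log2 fold change of P0 against E14.5 (x axis) for each Eif promoter region (rows), coloured by the role of the gene. Points are edgeR estimates and bars 95% intervals. The grey band spans the quartiles of all promoter regions around their median of -0.10. Intervals of 5 regions (Eif1, Eif4b, Eif4h, Eif5a and Eif2c3) lie wholly below 0, before adjustment, and none lies wholly above.

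Among the eIF4 factors, 6 of 7 regions were below 0, with a median of -0.30, and 2 of 7 passed the unadjusted limit (8.73% of all promoter regions). Eif4b, which stimulates the helicase eIF4A (chr15:102072924-102074862), gave 25.4, 26.3 and 21.6 CPM at E14.5 and 15.8, 11 and 20.3 CPM at P0. Every P0 library lay below every E14.5 library, with P0 replicate 3 just under the lowest of them. The log2 fold change was -0.62 (SE 0.23, 95% interval -1.10 to -0.14, adjusted p = 0.142 in edgeR).

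Eif4h, a relative of Eif4b with the same partner (chr5:134638018-134640020), gave 29.1, 18.3 and 22.3 CPM at E14.5 and 13.6, 12.4 and 20.4 CPM at P0. P0 replicate 3 lay between the E14.5 values, and the log2 fold change was -0.57 (SE 0.24, adjusted p = 0.208 in edgeR). Leaving out P0 replicate 3 left 2 member regions past the threshold: Eif4b, with a fitted log2 change of -0.87 (SE 0.24, adjusted p = 0.0447 in edgeR), and Eif3j, with -0.84 (SE 0.24, adjusted p = 0.0489). Without P0 replicate 2, Eif4b was at -0.43 (adjusted p = 0.333 in edgeR) and Eif3j at -0.29 (adjusted p = 0.548). The 2 calls without P0 replicate 3 are 2 of 42, beside 1.39% of all promoter regions under the same setting, and each of the other 5 fits with 1 library left out called 0.

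Eif4a1, the helicase itself, gave 45.1, 28.5 and 32.6 CPM at E14.5 and 29.5, 25.7 and 38.4 CPM at P0, a log2 fold change of -0.17 (SE 0.22). The stages overlapped. Eif4g2, which encodes a scaffold that does not bind the cap protein, and Eif4a3, the helicase of the exon junction complex, both had -0.30, and the cap-binding relative Eif4e2 had -0.23. Eif4g3, a scaffold of the cap complex, was the one eIF4 region above 0 with all libraries. It gave 19.7, 14.1 and 15.8 CPM at E14.5 and 18.4, 16.2 and 19.4 CPM at P0. Its log2 fold change was 0.13 (SE 0.21), and it ranged from 0.02 to 0.28 with 1 library left out. Eif4e and Eif4g1, the other genes of the cap complex, have no member region.

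Eif5a had the lowest fold change of all members, and 1 library carried most of it. The gene encodes a factor that frees stalled ribosomes and bears the modified residue hypusine (chr11:69919738-69922672). It gave 92.2, 34.2 and 44.1 CPM at E14.5 and 33, 27.4 and 38.2 CPM at P0, so that E14.5 replicate 1 was more than 2 times every other library and the stages overlapped in the rest. The log2 fold change was -0.78 (SE 0.30, adjusted p = 0.165 in edgeR). Without E14.5 replicate 1 it was -0.25. Its paralog Eif5a2 had -0.09 (SE 0.20).

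Among the brakes on initiation, the 3 regions of the eIF4E-binding proteins and their transporter were all below 0, with a median of -0.10, and 2 of the 3 eIF2 kinase regions were, with a median of -0.23. Eif4ebp1, a 4E-BP that releases eIF4E when mTOR phosphorylates it, gave 38.3, 49.8 and 45.4 CPM at E14.5 and 36, 42.2 and 50.4 CPM at P0, a log2 fold change of -0.05 (SE 0.20). Eif4ebp2 gave 27.3, 16.3 and 20.8 CPM at E14.5 and 17.2, 16.3 and 26.1 CPM at P0, or -0.10 (SE 0.24). Both had overlapping stages. Eif4enif1, which carries eIF4E into the nucleus, had -0.21 (SE 0.26).

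Of the eIF2 kinases, Eif2ak1, the heme-regulated kinase (chr5:143816888-143819314), gave 29.1, 28.1 and 32.6 CPM at E14.5 and 21.9, 20 and 26.4 CPM at P0. The stages did not overlap, and the log2 fold change was -0.39 (SE 0.19, adjusted p = 0.291 in edgeR). Eif2ak3, also known as PERK, the kinase of the unfolded protein response (chr6:70843919-70845091), gave 136, 143 and 165 CPM at E14.5 and 125, 104 and 149 CPM at P0. The P0 libraries reached into the E14.5 range through replicate 3, and the log2 fold change was -0.23 (SE 0.21). It was -0.11 without P0 replicate 2, -0.14 without E14.5 replicate 3, -0.38 without P0 replicate 3, and -0.06 with cyclic loess scaling. Eif2ak4, also known as GCN2, the sensor of amino acid shortage (chr2:118387981-118389349), gave 69.6, 47.1 and 42 CPM at E14.5 and 50, 48.7 and 62.8 CPM at P0, or 0.03 (SE 0.22).

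The 4 Argonaute regions were all below 0, with a median of -0.24. Eif2c3 (Ago3) gave 25.7, 21.6 and 23.2 CPM at E14.5 and 18.2, 13.8 and 19.8 CPM at P0, with no overlap and a fitted log2 change of -0.44 (SE 0.20, adjusted p = 0.26 in edgeR). Eif2c1 (Ago1), also with no overlap, had -0.19 (SE 0.19). The 2 regions of Eif2c2 (Ago2) had -0.29 and -0.02. Without these 4 regions the median of the remaining 38 was -0.21.

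Levels were compared between members as mean CPM per kb of region, since regions ran from 1031 to 3925 bp. The members' quartiles were 10.5 and 20.6 CPM per kb, beside 8.97 and 21.4 for all promoter regions, whose median was 12.8, and 10.8 and 18.1 for promoters of similar mean CPM. Eif2ak3 stood far above the others at 117 CPM per kb, rank 54 of the 14097 promoter regions. It was followed by Eif3f with 42, Eif2s1 with 40.1, Eif2ak4 with 39 and Eif2a with 36 CPM per kb. These 4 neighbours in the order overlapped in their library values. Eif3f (chr7:108933933-108935143) gave 63.7, 42.5 and 58.7 CPM at E14.5 and 48.9, 37.7 and 53.5 CPM at P0. The least open per kb were Eif3g with 5.31, Eif3l with 6.7, Eif2b5 with 6.84, Eif3b with 6.91 and Eif4g3 with 7.81 CPM per kb. Eif2b5 and Eif3b are also the widest member regions, at 3925 and 3473 bp, and a wide region spreads its counts over more bases.

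**Figure D4:**
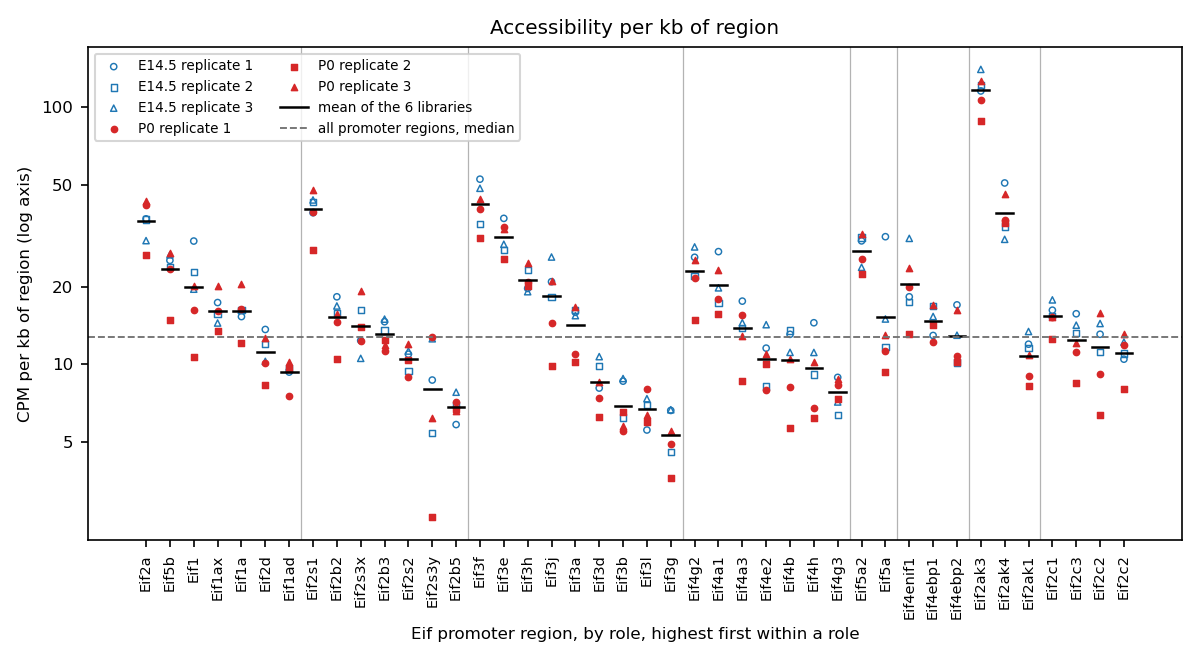
Accessibility per kb of region (y axis, CPM per kb, log axis) for the 42 Eif promoter regions, grouped by role along the x axis. Symbols are the 6 libraries, black bars their mean, and the dashed line the median of all promoter regions, 12.8. Eif2ak3, with a mean of 117, stands above all other members in every library, and Eif2s3y has the widest spread.

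An exon was annotated in 41 of the 42 (97.6%, beside 93.8% of all promoter regions). The table's own motif column named Sall1, the zinc finger factor of kidney progenitors, in 16 members (38.1% against 19.8%) and E2f3 in 11 (26.2% against 13%). Of the other E2f names, E2f1 was in 10 (23.8% against 20.2%), E2f4 in 10 (23.8% against 19.3%), E2f7 in 6 (14.3% against 13.9%) and E2f6 in 5 (11.9% against 12.3%). Maz was named in 20 (47.6% against 38.1%) and Sall4 in 11 (26.2% against 16.6%). Any motif name was given for 35 members (83.3% against 69.4%). Among promoters of similar mean CPM the shares were 22.4% for Sall1, 18.6% for Sall4, 43.6% for Maz and 72.6% for any name. For the E2f names they were 14.8% for E2f3, 23.3% for E2f1, 22% for E2f4, 15.8% for E2f7 and 14.3% for E2f6. These shares carry no test. The letters behind the motif names and the score limit used are not given in the sources used here.

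The 9 regions that hold the start of an Eif gene but are listed under another gene had a median log2 fold change of -0.11, from -0.31 to 0.07. Of these, 0 passed the test (0.851% of all promoter regions) and 0 the unadjusted limit (8.73%), and with so few regions at these shares the counts of 0 say nothing particular about them. Eif4e, the cap-binding protein, gave 49.3, 41.1 and 53.8 CPM at E14.5 and 39.3, 35.4 and 58.8 CPM at P0 (chr3:138525856-138528620), a log2 fold change of -0.11 (SE 0.22). Eif4a2 had 0.05, Eif2ak2 (PKR, the kinase activated by double-stranded RNA) 0.03 and Eif5 -0.23. The lean of these regions was close to that of all promoter regions.

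The wider translation list held 43 genes of elongation, release, recycling, poly(A) and cap function, mitochondrial initiation and stress signalling, and 31 had a promoter region. Of the 31, 0 passed the test, beside 0.851% of all promoter regions, and 1 the unadjusted limit, beside 8.73%. The latter count was 0 without E14.5 replicate 1 or P0 replicate 1, 5 without P0 replicate 3 and 2 without E14.5 replicate 2. With all libraries, neither count stands apart from these shares. The median log2 fold change was -0.18, with 26 of 31 below 0. Denr, which recycles ribosomes and restarts them after short reading frames, gave 30.2, 21.9 and 23.5 CPM at E14.5 and 15.1, 15.4 and 19.9 CPM at P0, with no overlap. Its log2 fold change was -0.58 (SE 0.21, adjusted p = 0.138 in edgeR). Pabpc4, a poly(A)-binding protein, was next, with -0.41 (SE 0.22, adjusted p = 0.341), and -0.26 without E14.5 replicate 1.

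A further 17 regions were assigned to Eif genes without being listed as their promoters, of which 8 are listed as promoters of other genes. Those of Eif5, Eif4a2 and Eif3m are also among the 9 regions above. The median log2 fold change of the 17 was 0.13, with 12 above 0, beside 0.01 for all regions. Of the 17, 3 overlap one another at the promoter of Foxp1, and with these counted as 1 site, a choice made after seeing the data, the median of the 15 sites was 0.05, with 10 above 0. None passed the adjusted threshold (0 of 17 in edgeR, DESeq2's Wald test and limma-voom), beside 4.73% of all regions in edgeR, a share at which a count of 0 in 17 is no result about them. The unadjusted limit was met by 3 of 17, beside 18.7% of all regions. This count was 1 without P0 replicate 3 and 2 without P0 replicate 2 or E14.5 replicate 2. In 3 of 17 every P0 library lay above every E14.5 library, beside 11.8% of all regions, and these 3 were all assigned to Eif4e3, a relative of the cap-binding protein.

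The clearest of these (chr6:99610242-99611245) gave 6.76, 7.01 and 6.07 CPM at E14.5 and 9.79, 10.3 and 12 CPM at P0, with a fitted log2 change of 0.69 (SE 0.25, adjusted p = 0.136 in edgeR). The next (chr6:99439438-99440974) gave 8.54, 9.37 and 10.3 CPM at E14.5 and 12.1, 16.3 and 14.7 CPM at P0, or 0.61 (SE 0.23, adjusted p = 0.152). The assignment is that of the table. In RefSeq the first lies outside Eif4e3 and the second lies inside Foxp1, the gene of a forkhead factor. The third of these regions (chr6:99623715-99624690) does lie in Eif4e3 in RefSeq, and its fitted log2 change was 0.43 (SE 0.28, adjusted p = 0.438 in edgeR). The 3 overlapping regions at the Foxp1 promoter are among the 7 that the table assigns to Eif4e3.

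**Figure D5:**
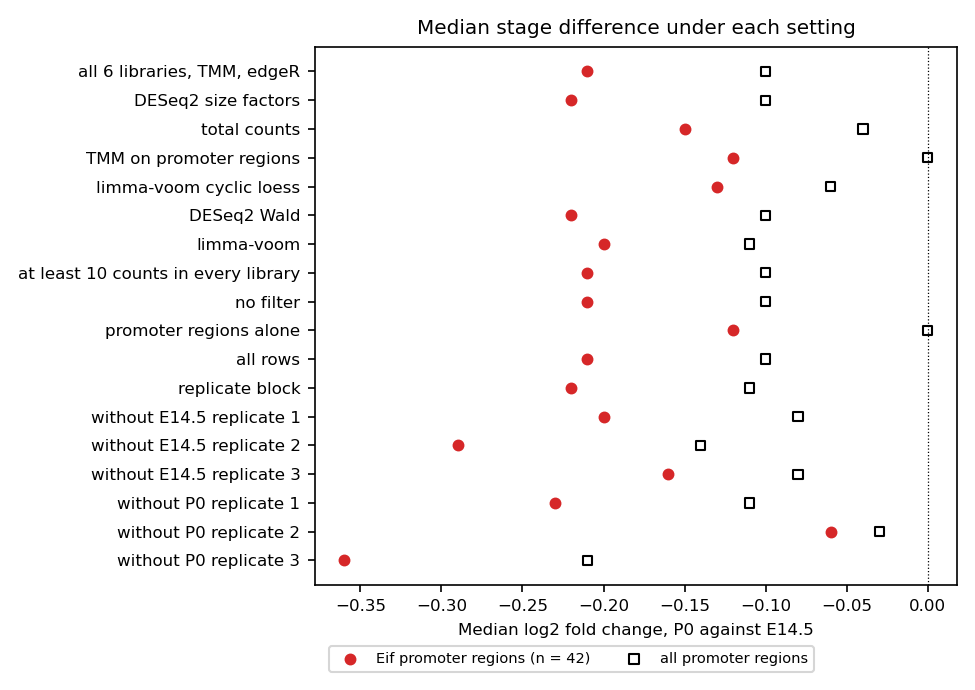
Median log2 fold change of P0 against E14.5 (x axis) for the 42 Eif promoter regions (filled circles) and for all promoter regions (open squares) under each scaling, test, filter or left-out library (rows). The circle lies left of the square in every row, and both move right without P0 replicate 2 (-0.06 and -0.03) and left without P0 replicate 3 (-0.36 and -0.21).

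In the authors' deposited table, all 42 regions were classed as stable between the stages, as were 98.4% of all promoter regions. The other 1.61% of promoter regions were given another class, so the count for the members is close to the background. The smallest adjusted p there was 0.198, at Eif4b. The median log2 fold change in the authors' deposited table was -0.14 for the 42 regions and -0.08 for all promoter regions.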

How the data were processed

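ATAC-seq was compared between 3 E14.5 and 3 P0 libraries, grouped and numbered by the labels. The deposited table gives, for each region, the read count of every library, per the file headers. Its genome build was mm10, per the submitters' processing notes. The aligner, peak caller, counting rule, any shift of reads for the Tn5 cut and the removal of duplicates are not given in the sources used here, and their effect on the counts was not assessed. The deposited table also holds the authors' own comparison of the stages, from a model the headers do not describe. Its log2 fold change and adjusted p-value, per the file headers, are printed only where named as the authors', and its score columns (a test statistic and log-odds) were not used.

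Of 45489 rows, 1966 repeated a region with identical values and were dropped, leaving 43523. Promoter identifiers were named through 28296 identifier and name pairs in the table; 1592 promoter regions stayed unnamed. RefSeq (GRCm38.p6) gave start sites, gene spans and promoter sequences. Coordinates are 1-based.

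Counts were tested with edgeR 4.0.16 (R 4.3.3): TMM scaling, filterByExpr (which removed 0 regions), quasi-likelihood F test, stage the single factor, Benjamini-Hochberg adjustment over all 43523 regions, threshold 0.05. Log2 CPM used a prior count of 1. An SE is the size of the log2 fold change divided by the square root of F. The fit was tested on simulated data. The biological coefficient of variation was 0.211. DESeq2 1.42.0 and limma 3.58.1 served as alternatives, beside other scalings, filters, a replicate block and each library left out. Same-numbered libraries did not deviate together (correlations 0.067, -0.14 and 0.077), so the numbers were not taken as pairs.

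The members and lists were chosen with earlier results of these data known. Regions named with values are the 6 highest and 6 lowest fold changes (mean CPM of at least 5), the 5 highest and 5 lowest levels per kb, and the core genes of eIF2, the cap complex, the 4E-BPs and the eIF2 kinases. In the other lists they are the 2 smallest p. Further members are given mostly by their fold change alone, to account for each role group, and their values under alternatives were not listed. Regions named because the stages did not overlap, or because an Eif start lay under another name, were chosen after their values were seen, as was the omission of the Argonautes. P-values measure the spread between litters.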

Additional observations from a re-analysis of the deposited data

How the results depend on the processing

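The count of 0 member regions past the threshold held under 9 changes of scaling, test, filter, adjustment or rows, under the replicate block and at a threshold of 0.1. Leaving the filter out gives the same fit, since the filter removed 0 regions, and a threshold of 0.01 or fewer of the same regions cannot add a call. With 1 library left out it ranged from 0 to 2, the 2 coming without P0 replicate 3. The translation list and the regions outside promoters also gave 0 under the same 9 changes, the replicate block and each left-out library, except that the fit on promoter regions alone holds only 8 of the 17 regions outside promoters. The members' median ranged from -0.36 to -0.06 with 1 library left out, and from -0.22 to -0.12 under the other fits. Its difference from promoters of similar level ranged from -0.14 (without E14.5 replicate 2) to -0.02 (without P0 replicate 2). The cause was not tested. The replicate block changed no call.

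For the 30 named regions, 508 alternative values were computed: 471 kept direction and call (30 of these from the fit without the filter), 2 became calls (Eif4b and Eif3j, above) and 35 changed sign, in 14 regions whose log2 fold change was small or widely spread. Eif4ebp1 moved to 0.0004 with total counts, 0.04 with scaling on promoter regions or promoter regions alone and 0.02 with cyclic loess. Under the same settings Eif2s2 gave 0.05, 0.09, 0.09 and 0.02, and Eif2b5 0.04, 0.10, 0.10 and 0.03. Eif3l gave -0.01 with cyclic loess. With 1 library left out, the ranges were -0.98 to 0.09 for Eif2s3y, -0.37 to 0.04 for Eif4a1, -0.33 to 0.06 for Eif2s1, -0.37 to 0.11 for Eif4ebp2, -0.21 to 0.04 for Eif4ebp1 and -0.15 to 0.07 for Eif2s2. They were -0.11 to 0.09 for Eif2b5, -0.12 to 0.27 for Eif2ak4, -0.11 to 0.12 for Eif3l, -0.18 to 0.21 for Eif1a and -0.11 to 0.20 for Eif1ax. For Eif3h the range was -0.03 to 0.17, for Eif2a -0.03 to 0.30 and for Eif2s3x -0.02 to 0.40. The members' median SE was 0.22 on the log2 scale, and a difference that missed the threshold is not shown to be absent.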
